A study of Mus musculus with 4 samples.

Results

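Genes that build cholesterol, fatty acids, storage lipids and the wax and oil of sebum were compared between hair follicle bulge stem cells of mice given CSA and of mice given vehicle. The 51 genes were listed by name for their roles in lipid synthesis and the sebaceous gland; the rule itself reads no measured value, but the list was drawn up with earlier results of these data known. A gene entered where the array annotation gave a row to it alone. This held for 48 of the 51 genes, in 52 rows, out of 19935 genes so named on the arrays; Acsl1, Acsl3 and Soat1 were not analysed here. The 48 fell into 16 genes of sterol synthesis, 6 of sterol control and transport, 14 of fatty acid synthesis, 8 of triglyceride and wax formation and 4 other sebaceous gland markers.

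The mice were male, of strain CD-1 and at postnatal day 56, in the resting phase of the hair cycle. One group received CSA at 100 mg/kg into the peritoneum for 3 days before the skin was taken, and the other received vehicle the same way. The labels name no transgene or mutation in either group. CSA is not spelled out in the labels; in studies of calcineurin it stands for cyclosporine A, which inhibits that phosphatase. Cells bearing both alpha6 integrin and CD34 were sorted, and each group gave 2 arrays, called biological replicates by the submitters without saying how many animals stood behind each. The title asks how calcineurin and Nfatc1 connect stem cell quiescence with hormonal signals.

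Cholesterol is made from acetyl units through mevalonate, isoprenoids, squalene and lanosterol. When membrane sterol is short, Scap carries the transcription factors encoded by Srebf1 and Srebf2 out of the endoplasmic reticulum, where Insig proteins otherwise hold them, and they switch on most of these enzymes. Fatty acids are built by Acaca and Fasn, lengthened by the Elovl enzymes and desaturated by the Scd and Fads enzymes. The sebaceous gland, which adjoins the follicle above the bulge, turns them into triglycerides, wax esters and cholesterol esters, while the epidermis uses long chains for its barrier.

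Values are log values taken as log2, already centred gene by gene when deposited, around an unstated baseline. A value of 0 therefore means the gene's baseline, and no value says how abundant an RNA was or compares one gene's level with another's. Of 16 bulge markers 13 stood above baseline on all 4 arrays, as did 818 of all 19935 genes; Itga6, Col17a1 and Npnt did not. Of the genes for the sorted proteins, Cd34 was 1.75 and 3.60 on the CSA arrays against 4.05 and 4.25 on the vehicle arrays, whereas Itga6 was -0.70 and -0.53 under CSA with -0.9995 and 0.08 under vehicle, below its baseline on 3 of 4 arrays. Array medians over all rows lay between -0.02 and 0.06. The arrays CSA replicate 2 and vehicle replicate 2 correlated at a Pearson r of 0.516 across rows, which are not independent replicates, and every other pair at 0.02 to 0.168. CSA replicate 1 and vehicle replicate 1 thus each stood apart from the rest. Differences given with ± rest on all 4 arrays, and for 26 of the 48 genes the sign turned when 1 array was left out.

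No lipid gene passed the test between CSA and vehicle. limma called 0 of the 48, and 0 of 19935 genes overall (0% called), at an adjusted p under 0.05; at an unadjusted p under 0.05 it had 2 of the 48 and 565 of all genes (2.83%), and with a mean-variance trend it called 0 as well, with 547 genes at that unadjusted p. Every adjusted p of a lipid gene was 0.999 or above. With 2 arrays against 2, an exact two-sided permutation test of a single gene cannot go below p = 0.333. The differences that follow are therefore measured values with their errors, and none is a call.

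Of the 48 genes 32 were lower and 16 higher in CSA, with a median log2 difference of -0.18, against 58.9% of all genes lower and a median of -0.044. The arrays of the groups did not overlap for 19 of the 48 (39.6%, against 26.3% of all genes); 16 of these 19 were lower in CSA, and 15.4% of all genes were lower without overlap. Group means were at least 1.5-fold apart without overlap for 5 of the 48 (10.4%, against 5.9% of all genes), namely Idi1, Fdft1, Msmo1 and Elovl1 lower (1.99% of all genes) and Scd1 higher (3.91% of all genes); with arrays set to a median of 0 there were 3. For 9 of the 48 (18.8%, against 14.6% of all genes) the difference was larger than the gap between replicates in either group: Fdft1, Sqle, Msmo1, Srebf2, Acacb, Fasn, Dgat2 and Awat2 lower and Dgat1 higher. No chance level was computed for the lists, so these shares only describe the lipid genes beside the rest.

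**Figure D1:**
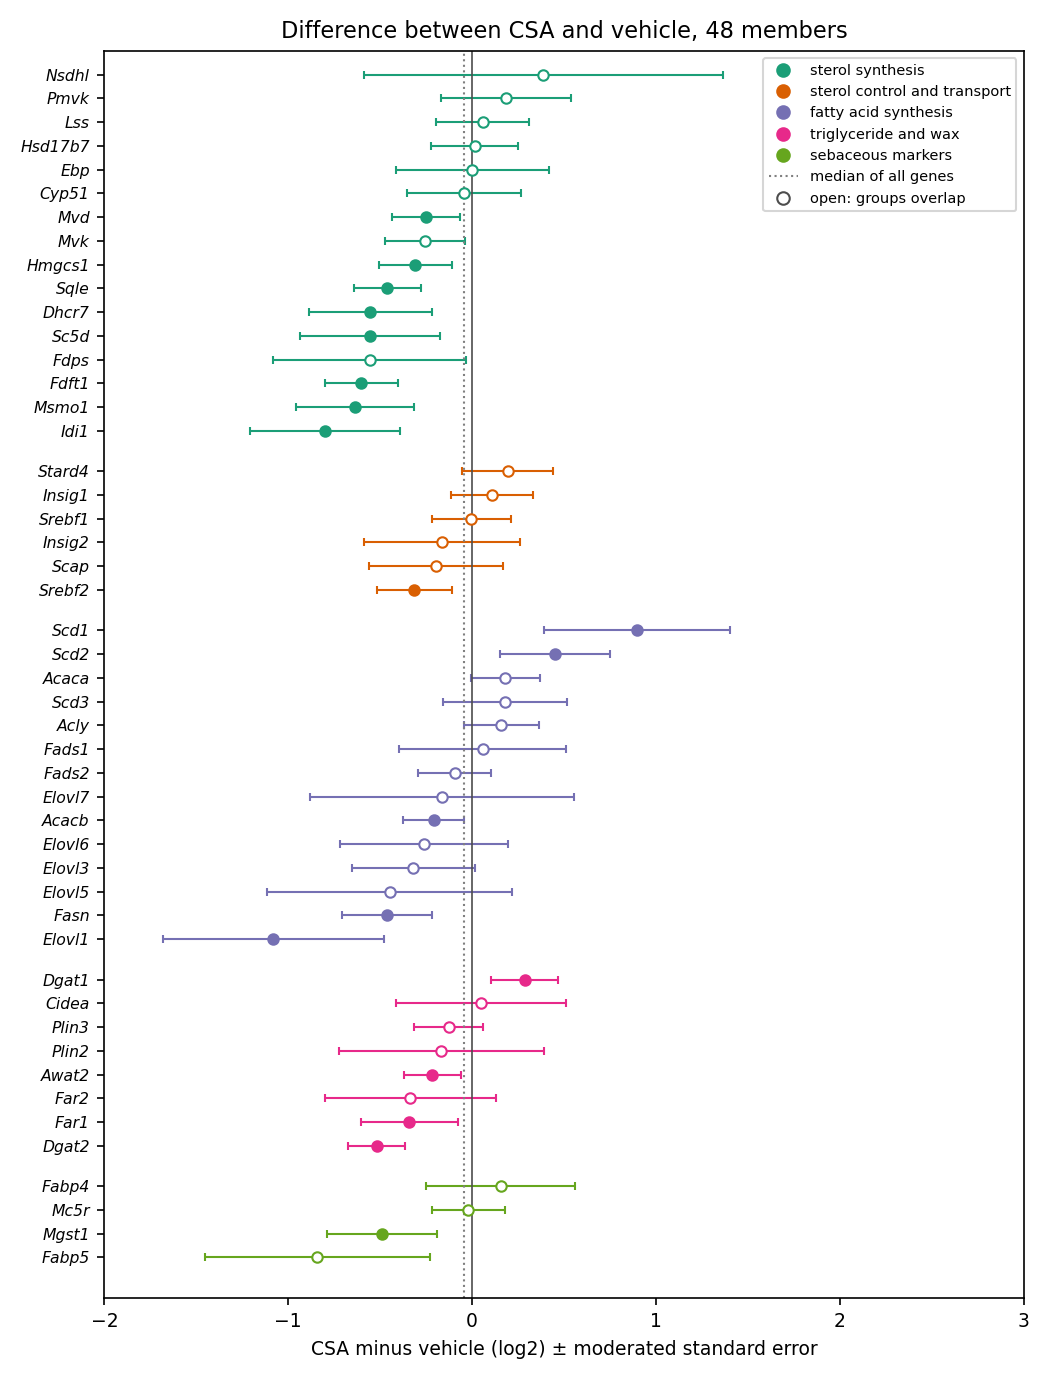
Difference between CSA and vehicle in log2 units (x axis) for the 48 lipid genes (y axis, coloured by class), with bars of 1 standard error as limma moderates it (2 arrays in each group); filled points mark genes without overlap between the groups, and the dotted line is the median of all genes (-0.044). Most sterol synthesis genes lie left of 0, from Idi1 at -0.80 to Mvd at -0.25, while Scd1 at 0.90 lies farthest to the right.

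The enzymes of sterol synthesis made up the largest class, and 11 of 16 were lower in CSA and 5 higher. Their median difference was -0.28. In 8 of 16 (50%, against 26.3% of all genes) the groups did not overlap, all 8 lower in CSA (15.4% of all genes). These were Hmgcs1, Mvd, Idi1, Fdft1, Sqle, Msmo1, Sc5d and Dhcr7. The count was 5 after quantile normalization and 6 with arrays set to a median of 0, again all lower. The class median on each array was -0.58 in CSA replicate 1, -0.06 in CSA replicate 2, 0.05 in vehicle replicate 1 and 0.07 in vehicle replicate 2. CSA replicate 1 held the lowest value for 12 of the 16 genes, whereas it was lowest for 22.7% of all genes.

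Among the early steps, Hmgcs1, the synthase that makes the precursor of mevalonate, had values of -0.83 and -0.73 under CSA and -0.30 and -0.65 under vehicle. All 4 arrays lay below its baseline and the groups parted by little, with a difference of -0.31 ± 0.20, or -0.14 without vehicle replicate 1 (here and below, ± is the moderated standard error that limma gives for 2 arrays against 2). Mvk, mevalonate kinase, was -0.50 and -0.17 under CSA against 0.07 and -0.23 under vehicle, which overlap; leaving out CSA replicate 1 took its difference from -0.25 ± 0.22 to -0.093, and leaving out vehicle replicate 1 took it to -0.10. The next kinase, Pmvk, differed by 0.18 ± 0.35, with vehicle replicate 1 at -0.50 and vehicle replicate 2 at 0.33. Mvd, the decarboxylase that ends the mevalonate steps, was -0.28 and -0.27 under CSA and 0.13 and -0.17 under vehicle, a difference of -0.25 ± 0.18, and -0.11 without vehicle replicate 1.

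Idi1, the isomerase that sets the ratio of the isoprenoid building blocks, had the largest difference of the class. It was -1.11 and -0.07 under CSA and 0.07 and 0.37 under vehicle, 1.74-fold lower (-0.80 ± 0.41). CSA replicate 1 gave most of that distance, and without it the difference was -0.28. A row of the array besides the one used also named Idi1, and there it differed by -0.72. Idi1, Fdft1, Acaca and Fabp5 each had 2 rows, and whether a row of theirs reads a near-identical gene copy was not tested. Fdps, which makes farnesyl diphosphate, was -1.21 and -0.08 under CSA against 0.36 and -0.54 under vehicle. Its groups overlapped, and the difference of -0.56 ± 0.52 was 0.007 without CSA replicate 1.

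Fdft1, squalene synthase and the first step committed to sterols, kept its distance on both arrays of each group. Its values were -0.36 and -0.18 under CSA and 0.18 and 0.49 under vehicle, 1.52-fold lower (-0.60 ± 0.20, 95% interval -1.15 to -0.06 before any adjustment, limma adjusted p = 0.999). On this row, leaving out any 1 array kept the difference between -0.76 and -0.45. A further row naming Fdft1 gave -0.55 but was less even. It stood at -0.76 and -0.11 under CSA and 0.10 and 0.12 under vehicle, so CSA replicate 1 gave most of its distance. With the rows averaged the difference was -0.57, which is under 1.5-fold. Sqle, squalene epoxidase and a rate-limiting enzyme of the pathway, followed with -0.58 and -0.34 under CSA and 0.07 and -0.07 under vehicle. Its difference of -0.46 ± 0.18 stayed between -0.58 and -0.34 with each array left out.

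After squalene closes to lanosterol the class divided. Lss, the cyclase that makes lanosterol, differed by 0.06 ± 0.25 and Cyp51, its demethylase, by -0.04 ± 0.31, both with overlapping groups. Msmo1, an oxidase in the removal of methyl groups, was -0.66 and -0.03 under CSA and 0.03 and 0.55 under vehicle. It was 1.55-fold lower (-0.64 ± 0.32), and its difference was -0.32 without CSA replicate 1 or -0.38 without vehicle replicate 2. Its groups parted by little and overlapped with arrays set to a median of 0. After quantile normalization the difference of Msmo1 was -0.576, under 1.5-fold. Nsdhl, which acts with Msmo1, showed the widest gap between replicates: -1.37 and 0.36 under CSA and -1.98 and 0.19 under vehicle. Both arrays numbered 1 were low for Nsdhl, and its difference was 0.39 ± 0.98. Hsd17b7 and Ebp, a reductase and an isomerase of late steps, differed by 0.02 ± 0.24 and 0.002 ± 0.42.

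The last enzymes leading to cholesterol were lower again. Sc5d, a desaturase, was -1.05 and -0.06 under CSA and -0.05 and 0.05 under vehicle (-0.56 ± 0.38). CSA replicate 2 almost touched vehicle, and without CSA replicate 1 the difference was -0.06. Dhcr7, the reductase of the final step, was -0.60 and 0.23 under CSA and 0.47 and 0.26 under vehicle (-0.55 ± 0.33), and -0.14 without CSA replicate 1.

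The weight of CSA replicate 1 was general in the class. Without that array 9 of 16 sterol synthesis genes were lower and the class median was -0.075, close to all genes in the same setting (58.6% lower, median -0.056). Without CSA replicate 2 all 16 were lower, at a median of -0.51, against 56% of all genes. Leaving out vehicle replicate 1 gave a median of -0.22 and leaving out vehicle replicate 2 gave -0.40, each with 13 of 16 lower, against 47.6% and 61.6% of all genes. Hmgcs1, Mvk, Mvd, Idi1, Fdft1, Sqle, Msmo1, Sc5d and Dhcr7 were lower whichever array was left out. For all of these but Mvk this follows from groups that did not overlap. Bulge markers were also lowest on CSA replicate 1 for 10 of 16 genes, with array medians of 0.26 and 0.85 under CSA and 0.47 and 1.26 under vehicle; their part in the sterol values was not tested.

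**Figure D2:**
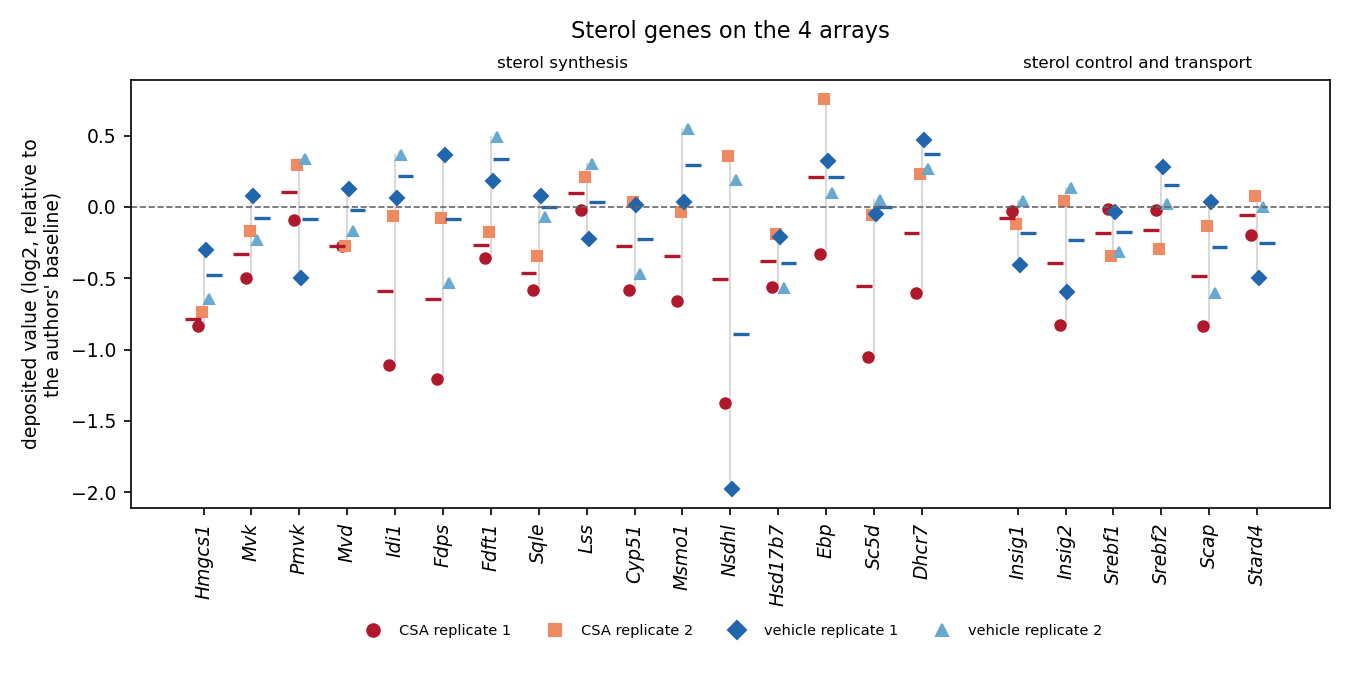
Deposited log2 value relative to the authors' baseline (y axis) for each sterol synthesis, control and transport gene (x axis) on the 4 arrays, 1 symbol per array, with short bars for the mean of each group. CSA replicate 1 (dark red circles) is the lowest array for 12 of the 16 synthesis genes, while Nsdhl is low on both arrays numbered 1.

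Promoter sequence was set beside these values because the sterol genes are a textbook case of shared control, in which the sterol factors bind an element near a CCAAT box, the site of NF-Y. RefSeq windows (build GRCm38.p6, 250 bases before to 50 after a start site) were matched by symbol for 34 of the 48 genes and for 13 of the 16 sterol synthesis genes. A window of Hmgcs1 lies at chr13:119690101-119690400 (plus strand), of Mvk at chr5:114444019-114444318 (plus strand), of Idi1 at chr13:8885356-8885655 (plus strand) and of Msmo1 at chr8:64733529-64733828 (minus strand). They are shown 5′ to 3′ on the gene's strand, as the genes of early and late steps with matches that can be compared. Capitals mark CCAAT on either strand (ATTGG on the printed strand) and, in Hmgcs1, the core of the sterol regulatory element TCACNCCAC.
Hmgcs1: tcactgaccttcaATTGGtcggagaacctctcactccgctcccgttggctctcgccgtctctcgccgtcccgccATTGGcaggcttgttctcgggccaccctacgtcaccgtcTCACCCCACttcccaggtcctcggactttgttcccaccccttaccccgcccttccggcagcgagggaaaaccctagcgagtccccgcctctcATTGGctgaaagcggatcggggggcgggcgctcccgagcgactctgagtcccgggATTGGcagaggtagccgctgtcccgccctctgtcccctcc
Mvk: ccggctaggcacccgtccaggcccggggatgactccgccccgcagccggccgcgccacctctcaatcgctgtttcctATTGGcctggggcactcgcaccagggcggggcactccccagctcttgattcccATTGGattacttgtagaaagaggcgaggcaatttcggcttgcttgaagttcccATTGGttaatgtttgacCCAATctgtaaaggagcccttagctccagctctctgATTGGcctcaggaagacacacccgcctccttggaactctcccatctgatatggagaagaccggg
Idi1: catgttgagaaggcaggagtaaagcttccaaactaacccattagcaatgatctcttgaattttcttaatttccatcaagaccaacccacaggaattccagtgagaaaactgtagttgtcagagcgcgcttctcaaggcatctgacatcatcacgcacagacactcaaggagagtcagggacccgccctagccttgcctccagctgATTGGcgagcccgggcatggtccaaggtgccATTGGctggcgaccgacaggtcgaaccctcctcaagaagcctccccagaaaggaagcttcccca
Msmo1: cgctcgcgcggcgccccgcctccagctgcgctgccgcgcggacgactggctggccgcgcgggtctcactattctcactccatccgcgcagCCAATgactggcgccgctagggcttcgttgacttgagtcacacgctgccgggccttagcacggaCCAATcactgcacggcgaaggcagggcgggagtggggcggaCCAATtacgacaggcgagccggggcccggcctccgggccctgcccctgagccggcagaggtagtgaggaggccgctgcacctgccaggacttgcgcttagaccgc

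All 13 sterol synthesis genes with a window held CCAAT in at least 1 window, against 41.1% of the 27025 genes with a window. Counted by window, this was 13 of 16 (81.2%) against 37.4% of 32851 windows. Mvk held 5 matches, Hmgcs1 4, Msmo1 3 and Idi1 2. The sterol element core was found in Hmgcs1 alone among these genes, against 1.44% of all genes; it starts at base 114 of the window. A core of the NFAT site, GGAAAA on either strand, was in 5 of 13, against 26.1% of all genes. CCAAT was also common in other classes, in 4 of 5 sterol control and transport genes, 4 of 5 triglyceride and wax genes and 5 of 10 fatty acid synthesis genes, though not in the 1 sebaceous marker with a window, and in 26 of 34 (76.5%) over all classes. Neither the sterol element core nor GGAAAA contains CCAAT on either strand, though neighbouring matches can share end bases, and a match describes the sequence without showing that a factor binds there. As all 13 sterol synthesis genes with a window held CCAAT, its presence cannot set lower genes (Idi1, Msmo1) apart from those near 0 (Lss, Ebp). Fdps, Fdft1 and Sqle had no window.

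Genes that control sterol synthesis or carry sterols were close to even between the groups. Of 6, 4 were lower and 2 higher in CSA, with a median of -0.084; this turned under quantile normalization, with 2 lower, 4 higher and a median of 0.023. Srebf2, the factor that mainly drives sterol enzymes, was -0.02 and -0.30 under CSA and 0.28 and 0.02 under vehicle. Those groups did not overlap and the difference was -0.31 ± 0.20; it lay between -0.45 and -0.18 with each array left out. Srebf1, whose products lean towards fatty acid genes, was -0.02 and -0.35 under CSA and -0.04 and -0.32 under vehicle. Replicates of Srebf1 with the same number nearly coincided, and its difference of -0.004 ± 0.21 had a 95% interval from -0.59 to 0.58 and turned to 0.037 when arrays were quantile normalized and 0.023 when each was set to a median of 0.

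Scap, the escort of these factors, was -0.83 and -0.13 under CSA and 0.03 and -0.60 under vehicle, a difference of -0.20 ± 0.36 that turned to 0.0097 after quantile normalization. Insig1, which retains Scap when sterol is plentiful and is itself a target of the factors, was -0.03 and -0.12 under CSA against -0.41 and 0.04 under vehicle (0.11 ± 0.22). Vehicle lay on either side of CSA for Insig1. Insig2 differed by -0.16 ± 0.42 and Stard4, a carrier of cholesterol between membranes, by 0.19 ± 0.25, both with overlapping groups.

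Other sterol genes, a list for uptake, export, sensing and further synthesis steps that overlaps none of the 48, leaned the other way. Of 16 measured 12 were higher and 4 lower in CSA, the median was 0.10, and 0 passed by limma. Vehicle replicate 1 held the lowest value for 9 of the 16, against 4226 of all 19935 genes. Abca1, which exports cholesterol from cells, was 1.97 and 0.51 under CSA and -0.07 and 0.36 under vehicle (1.09 ± 0.55). Lbr, a sterol reductase of the inner nuclear membrane, was 0.91 and 0.01 under CSA and -1.39 and -0.09 under vehicle (1.20 ± 0.57). For both genes the groups did not overlap, and a single replicate in each case, CSA replicate 1 for Abca1 and vehicle replicate 1 for Lbr, made most of the distance: the difference was 0.36 for Abca1 without CSA replicate 1 and 0.55 for Lbr without vehicle replicate 1.

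Fatty acid synthesis genes pointed both ways. Of 14 measured 6 were higher and 8 lower in CSA, at a median of -0.13, and the median was 0.14 without CSA replicate 1. The groups did not overlap for 5 of 14 (35.7%, against 26.3% of all genes). Scd1 and Scd2 were higher (10.9% of all genes), and Fasn, Acacb and Elovl1 lower (15.4% of all genes). At the entry, Acly, which frees acetyl units from citrate, differed by 0.16 ± 0.20. Acaca, the carboxylase that commits them to fatty acids, was -0.12 and 0.08 under CSA and -0.33 and -0.08 under vehicle (0.18 ± 0.19), and the difference was 0.056 without vehicle replicate 1. The other row naming Acaca gave 0.61, the same direction with a larger size.

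Fasn, fatty acid synthase, was -0.11 and -0.57 under CSA and 0.28 and -0.03 under vehicle, 1.38-fold lower (-0.46 ± 0.24). Here CSA replicate 2 was the lowest array, and with each array left out the difference ran from -0.69 to -0.24. Acacb, the carboxylase tied to the control of fatty acid oxidation, was -0.12 and -0.16 under CSA and 0.17 and -0.02 under vehicle (-0.21 ± 0.17), and the difference was -0.12 without vehicle replicate 1.

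The 3 Scd desaturases had higher means in CSA. Scd1, which introduces the double bond of oleate and is a main product of sebocytes, was -0.12 and -0.15 under CSA and -0.34 and -1.72 under vehicle. The CSA arrays coincided, and the difference of 0.90 ± 0.51, 1.86-fold, came largely from vehicle replicate 2; without that array it was 0.20. Scd2, the form found beyond the gland, was -0.02 and 0.72 under CSA and -0.08 and -0.11 under vehicle. Only CSA replicate 2 was distant, and the difference of 0.45 ± 0.30 was 0.08 without it. Scd3, a form of the sebaceous gland, was 0.50 and 0.03 under CSA and 0.45 and -0.28 under vehicle (0.18 ± 0.34), a pattern by replicate number rather than by group. Fads1 and Fads2, which desaturate polyunsaturated chains, differed by 0.06 ± 0.45 and -0.09 ± 0.20.

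All 5 elongases had a negative difference, and most of them with wide gaps between replicates. Elovl1, which makes very long saturated chains for the skin barrier, was -0.41 and -0.04 under CSA and 1.67 and 0.04 under vehicle. Vehicle replicate 1 was far above the other 3 arrays; the difference of -1.08 ± 0.60, 2.12-fold lower, was -0.27 without it. Elovl3, known from sebaceous glands and hair, was also highest there, with -0.02 and -0.30 under CSA and 0.57 and -0.24 under vehicle (-0.32 ± 0.33), and without vehicle replicate 1 the difference was 0.08. Elovl5, Elovl6 and Elovl7 were instead lowest on CSA replicate 1, at -0.33, -1.25 and -1.90. Their differences of -0.45 ± 0.67, -0.26 ± 0.46 and -0.16 ± 0.72 were 0.48, 0.33 and 0.75 without that array.

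**Figure D3:**
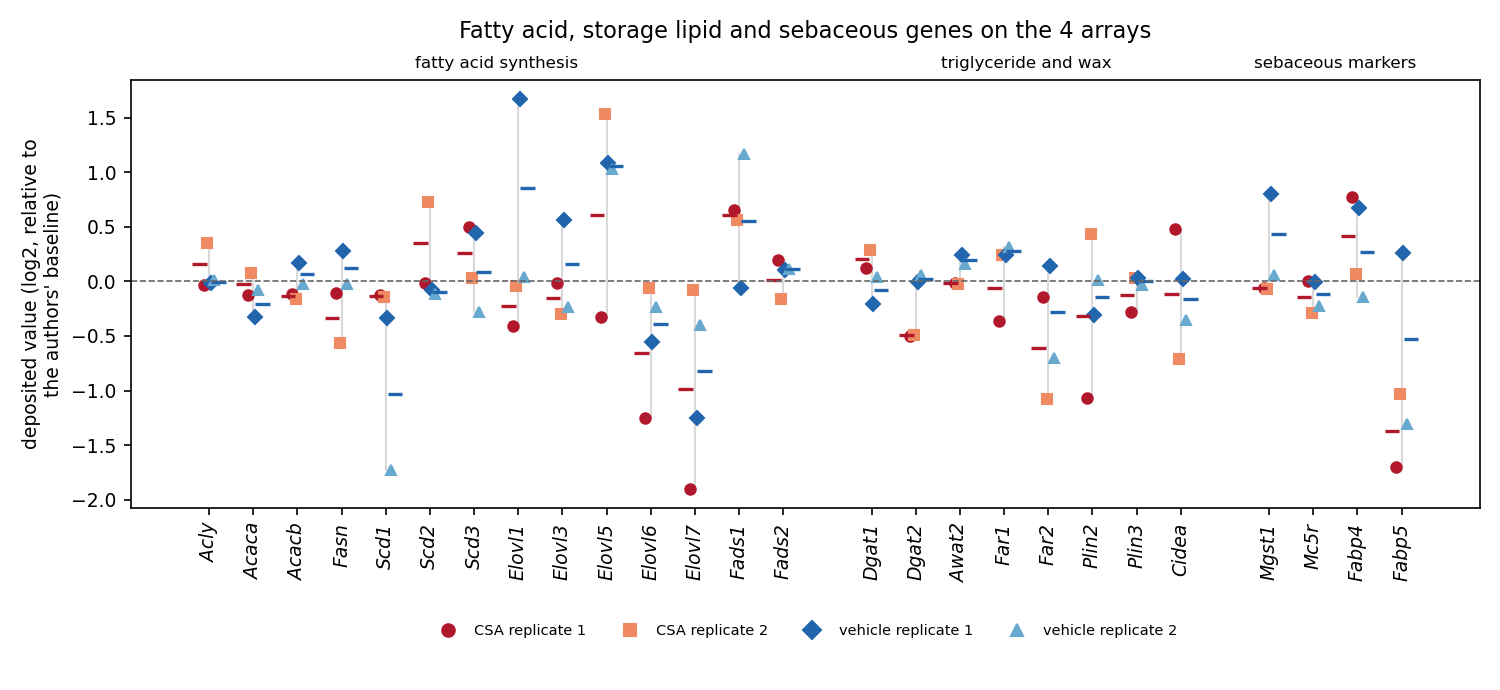
Deposited log2 value relative to the authors' baseline (y axis) for fatty acid, triglyceride, wax and sebaceous genes (x axis) on the 4 arrays, 1 symbol per array, with short bars for group means. Dgat2 and Awat2 show tight replicates with CSA below vehicle, whereas Elovl1, Mgst1 and Fabp5 are highest on vehicle replicate 1 (dark blue diamonds).

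In the triglyceride and wax class 6 of 8 genes were lower and 2 higher in CSA, with a median of -0.19. Dgat2, an acyltransferase of the last step of triglyceride synthesis, had close replicates: -0.50 and -0.49 under CSA and -0.01 and 0.05 under vehicle. It was 1.43-fold lower (-0.52 ± 0.15, 95% interval -0.94 to -0.09 before adjustment, limma adjusted p = 0.999), and with each array left out the difference ran only from -0.55 to -0.49. Dgat1, an unrelated enzyme that carries out the same step, stood the other way, at 0.12 and 0.29 under CSA and -0.20 and 0.04 under vehicle (0.28 ± 0.18), and 0.16 without vehicle replicate 1. Both genes had differences larger than their replicate gaps, in opposite directions.

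Awat2, which joins fatty alcohols and fatty acids into wax esters in the sebaceous gland, was -0.02 and -0.02 under CSA and 0.24 and 0.16 under vehicle. That difference of -0.22 ± 0.16 was small but stayed between -0.26 and -0.17 with each array left out. Far1, a reductase that supplies the fatty alcohols, was -0.36 and 0.24 under CSA and 0.24 and 0.32 under vehicle (-0.34 ± 0.26), with CSA replicate 2 next to vehicle and a difference of -0.038 without CSA replicate 1. Far2, its relative, was low on both arrays numbered 2, at -1.08 in CSA and -0.70 in vehicle, against -0.15 and 0.15 on those numbered 1.

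Coat proteins of lipid droplets varied within the groups. Plin2, which covers droplets in most cells, was -1.07 and 0.44 under CSA and -0.31 and 0.01 under vehicle. The CSA arrays enclosed vehicle, and the difference of -0.17 ± 0.56 became 0.59 without CSA replicate 1. Plin3 differed by -0.13 ± 0.19. Cidea, a droplet protein of sebocytes and brown fat, was 0.48 and -0.71 under CSA and 0.02 and -0.35 under vehicle, so that its difference of 0.05 ± 0.46 rested on replicates that lay on both sides of vehicle.

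Further genes of triglyceride storage and breakdown were higher in CSA for 19 of 29 and lower for 10, with a median of 0.07 and 0 passing by limma. Gpam, the first acyltransferase of glycerolipid synthesis, was 0.05 and -0.41 under CSA and -0.46 and -1.21 under vehicle (0.65 ± 0.34). Pnpla2, the main triglyceride lipase, was 1.10 and 0.03 under CSA and -0.42 and -0.53 under vehicle (1.03 ± 0.40). CSA replicate 1 was highest for both; the difference was 0.50 for Pnpla2 without it and 0.28 for Gpam without vehicle replicate 2. Agpat3 of the second acylation differed by 0.49 ± 0.19. Further fatty acid genes, 26 in all, were higher for 10 and lower for 16 (median -0.13), with Hsd17b12, a reductase of chain elongation, at -0.60 ± 0.40 with overlapping groups (-0.092 without CSA replicate 1) and Slc27a4, a fatty acid transporter of the epidermis, at -0.40 ± 0.22 (-0.18 without CSA replicate 1). The 18 genes of fatty acid oxidation were split, 10 higher and 8 lower (median 0.006), with Echs1 at 0.51 ± 0.22 (0.28 without vehicle replicate 2); in both lists limma called 0.

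The 4 sebaceous markers outside the enzyme classes were lower in CSA for 3 and higher for 1, with a median of -0.26 (2 lower and 2 higher under either scaling of the arrays, as Mc5r turned). Mgst1, a glutathione transferase abundant in sebocytes, was -0.06 and -0.07 under CSA and 0.80 and 0.06 under vehicle (-0.49 ± 0.30). Fabp5, a fatty acid carrier of keratinocytes and sebocytes, was -1.70 and -1.03 under CSA and 0.26 and -1.31 under vehicle. Vehicle replicate 2 thus lay among the CSA arrays, and a further row naming Fabp5 gave -0.92 beside the -0.84 ± 0.61 of the row used. Without vehicle replicate 1 the differences were -0.12 for Mgst1 and -0.06 for Fabp5, and the class median was 0.016.

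Mc5r, the melanocortin receptor that drives sebum output, was 0.007 and -0.29 under CSA and -0.007 and -0.23 under vehicle. Its difference of -0.02 ± 0.20 had a 95% interval of -0.57 to 0.52, and it turned to 0.024 when arrays were quantile normalized and 0.0055 when each was set to a median of 0. Fabp4, a carrier known from adipocytes and capillary endothelium as well as sebocytes, was 0.77 and 0.07 under CSA and 0.67 and -0.14 under vehicle (0.15 ± 0.41). Both arrays numbered 1 were high for Fabp4. Of 13 further sebaceous gland markers 5 were higher and 8 lower in CSA (median -0.04, 0 passing by limma). Of the 13, 6 were below baseline on all 4 arrays, as were 667 of all 19935 genes. Pparg, the nuclear receptor that sebocytes need, was -0.34 and -0.58 under CSA and -0.01 and -0.39 under vehicle (-0.27 ± 0.22). Vehicle replicate 2 of Pparg lay among the CSA arrays, and without vehicle replicate 1 the difference was -0.076. Prdm1, reported in sebaceous and upper follicle cells, differed by -0.52 ± 0.21. Rdh12 stood the other way, at -0.18 and 0.46 under CSA and -0.95 and -0.32 under vehicle (0.78 ± 0.35). It was the only 1 of the 13 at least 1.5-fold apart without overlap (7.69%, against 5.9% of all genes). Without regard to size, 2 of the 13 were higher (10.9% of all genes) and 2 lower (15.4% of all genes) without overlap.

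Markers of other skin cells also differed between the arrays. Of 17 markers of epidermal differentiation 15 were highest on vehicle replicate 1. Of the 48 lipid genes 17 (35.4%) were highest there, Elovl1, Elovl3, Mgst1 and Fabp5 among them, which is below the 43.2% of all genes. The median of the epidermal list was 0.90 there, compared with -0.40 on vehicle replicate 2 and with -0.48 and -0.22 under CSA. Krt10, a keratin of differentiated epidermis, reached 0.38 there and -0.58 on vehicle replicate 2, and stood at -1.35 and -0.90 under CSA. Endothelial markers were highest on vehicle replicate 1 for 14 of 15 (medians 0.27 and -0.02 for vehicle, 0.009 and -0.13 for CSA) and fibroblast markers for 10 of 14 (0.18 and -0.01 in vehicle, 0.03 and -0.09 in CSA). Adipocyte markers had array medians of -0.04 and -0.04 under CSA and 0.15 and -0.02 under vehicle, with Adipoq at 0.04 and 0.007 under CSA and 0.15 and -0.03 under vehicle. Macrophage and T cell markers were highest on vehicle replicate 1 for 12 of 14. On centred values no marker can be called absent, and the part of these cells in the lipid gene values was not tested. In sorted bulk RNA, fewer cells of a type and less RNA per cell cannot be told apart.

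**Figure D4:**
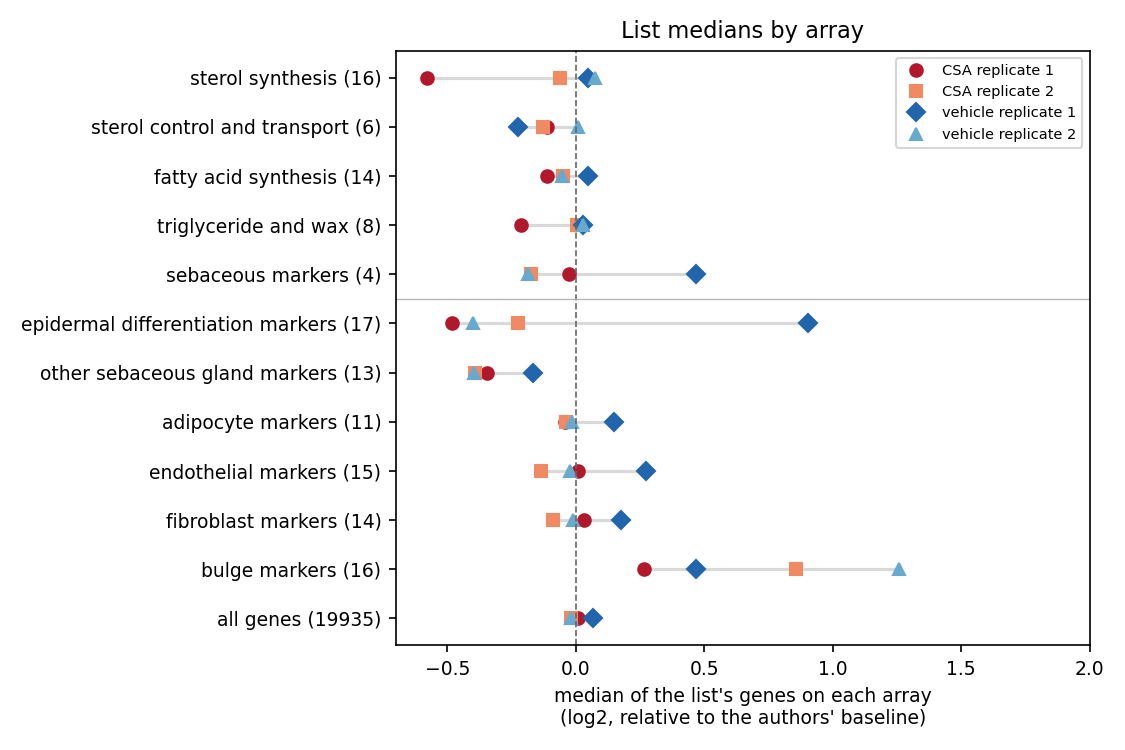
Median of each list's genes on each of the 4 arrays (x axis, log2 relative to the authors' baseline; number of genes in brackets), with the 5 lipid classes above the line and marker lists and all genes below. Epidermal differentiation (0.90) and sebaceous markers (0.47) are highest on vehicle replicate 1. So are fatty acid synthesis, triglyceride and wax, other sebaceous, adipocyte, endothelial and fibroblast lists, and all genes (0.067). Sterol synthesis is lowest on CSA replicate 1 (-0.58).

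Across the classes, 22 of the 48 genes kept the sign of their difference with any single array left out. These were 9 of 16 in sterol synthesis, 1 of 6 in sterol control and transport (Srebf2), 6 of 14 in fatty acid synthesis (Acaca, Acacb, Fasn, Scd1, Scd2 and Elovl1), 4 of 8 in triglyceride and wax (Dgat1, Dgat2, Awat2 and Far1) and 2 of 4 among the sebaceous markers (Mgst1 and Fabp5). Genes whose groups do not overlap keep their sign in this by construction. All 19 such genes were among the 22, which otherwise held Mvk, Acaca and Fabp5. No share over all genes was computed. The median gap between replicates over the 48 genes was 0.38 in CSA and 0.32 in vehicle, larger than their median absolute difference between the groups of 0.25. The same figures over all genes were 0.23, 0.27 and 0.16. A gap sets 1 array against 1, whereas a difference sets means of 2 arrays against each other, so their sizes are not like for like.

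**Figure D5:**
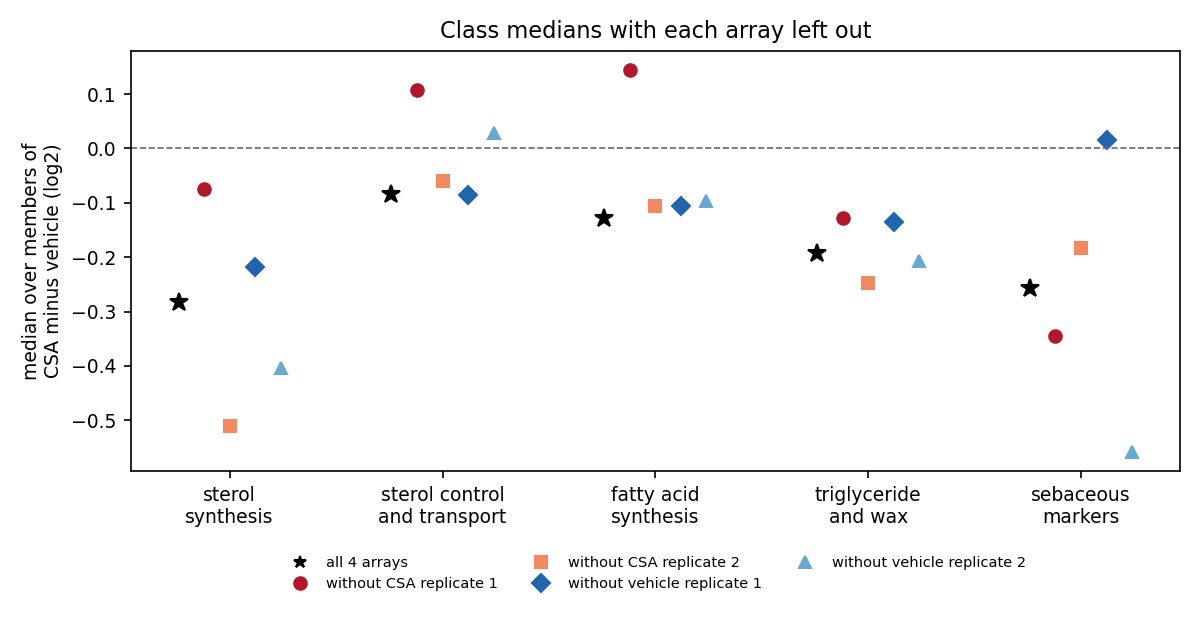
Median over each class of the CSA minus vehicle difference (y axis, log2) with all 4 arrays (stars) and with each array left out (other symbols). The sterol synthesis and the triglyceride and wax medians stay below 0 in every case, from -0.51 to -0.075 and from -0.25 to -0.13, while the other 3 classes cross 0.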

How the data were processed

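RNA of sorted bulge cells was measured on 4 one-colour arrays, 2 per group; per the labels' protocols 20 ng of total RNA was amplified once and labelled with biotin. The deposited series matrix holds 28815 rows of centred log values, taken as log2. Log base, baseline and normalization are not stated in the sources used here; the build mm8 is listed per the submitters' processing notes. The number of arrays limits the precision. Higher was taken as more RNA.

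Platform annotation gave 21780 rows to 1 gene; 1605 rows naming several genes and 5430 that it does not list entered no gene test. Where several rows named a gene, the one highest on average over the arrays was taken. limma 3.58.1 in R 4.3.3 (lmFit, eBayes without trend, prior degrees of freedom 2.13) was run on all 19935 genes without a filter. Tests were two-sided, with Benjamini-Hochberg adjustment at 0.05. A check on simulated data required mean estimated differences to lie near the planted ones. How large a change the test can call is not given here. Intervals are at 95%. A fold of 1.5 served for counts.

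By rule, values were printed for members at least 1.5-fold apart without overlap and the 4 of each class with the largest moderated t. A fixed set was printed as well for their role. The other members were described by class after their values were seen. Array values were also printed for some of these others, among them Mvk, Mvd, Fdps, Nsdhl, Sc5d, Dhcr7, Acacb and Far2. Members, lists and rules were chosen with earlier results of these data known. Promoter windows came from RefSeq and are of another build than the submitters'. Alternatives were a trend, a replicate block, quantile normalization, median centring, averaged rows, a filter at the 25th percentile of the mean and leaving out each array. On centred values the mean behind the trend and the filter is no measure of abundance. Where 1 array of a group is left, it is assumed to vary like the other group.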

Additional observations from a re-analysis of the deposited data

How the results depend on the processing

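limma called 0 genes and 0 of the 48 under every alternative run. The titles give both groups replicates 1 and 2, but nothing says that the numbers pair the samples; same-numbered arrays deviated from their group means with a correlation of 0.236 over genes. With the replicate number as a block limma called 0 of 19935 genes and 0 members (smallest adjusted p 0.866; 914 genes and 4 members at an unadjusted p under 0.05). The members at least 1.5-fold apart without overlap numbered 5, and 3 both with arrays centred on their medians and among the 22 members whose mean reached the 25th percentile of all genes. That mean is relative to each gene's baseline, so the filter cannot tell weakly from strongly expressed genes. In that filter 3 of 6 sterol synthesis genes were lower (11 of 16 without it; this count was added after seeing the data), and the 1 control gene left, Srebf2, set a median of -0.31. Leaving out 1 array gave 5 to 16 such members, where 1 array against 2 overlaps less often by itself, and class medians of -0.086 to 0.11 for sterol control and transport and -0.11 to 0.14 for fatty acid synthesis. Srebf1 turned to 0.037 and Mc5r to 0.024 after quantile normalization, as did Scap (0.0097), and to 0.023 and 0.0055 with centred arrays; the cause was not tested. With an array left out, differences crossed 0 for Srebf1 (-0.17 to 0.16), Scap (-0.55 to 0.15), Insig1 (-0.12 to 0.33), Stard4 (-0.056 to 0.44), Scd3 (-0.18 to 0.54), Elovl3 (-0.72 to 0.082), Plin2 (-0.92 to 0.59), Cidea (-0.55 to 0.64), Mc5r (-0.17 to 0.12) and Fabp4 (-0.25 to 0.56). Signal over background was not analysed here.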
